A study of Mus musculus with 5 samples.

Results

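The solute carrier genes of 5 mouse embryonic tissues are described here, that is, the genes named Slc followed by a family number, the letter a and a member number. Members were chosen by this name and by their measured level: a row entered when its mean over the 5 libraries was at least 1 FPKM (fragments per kilobase of transcript and per 1000000 mapped fragments). Of 14053 rows in the expression table, 12375 carried a gene name and 205 matched the naming pattern. Slc2a1, Slc2a2, Slc2a3, Slc38a5 and Slc4a1 were left out by name, which removed 5 rows. Of the remaining 200 rows, 173 reached the mean level and 27 did not. The 173 members came from 40 Slc families. Because the mean level chose them, their presence is not a result. Without the library in which they were highest, 15 of them would lie under 1 FPKM. Slc28a2 and Slc25a45, described below, are among these 15. Just inside the limit were Slc37a2 at a mean of 1.01 FPKM, Slc4a5 at 1.02 and Slc22a5, whose row has no strand, at 1.02. Just outside were Slc8a3 at 0.993 FPKM, Slc23a1 at 0.990 and Slc34a2 at 0.967. Slc10a1, the main bile acid importer of adult hepatocytes, was also outside, at a mean of 0.369 FPKM, as was the organic cation transporter gene Slc22a3 at 0.867 FPKM.

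Solute carriers are membrane proteins that move small molecules across the plasma membrane or an organelle membrane, either down a gradient or coupled to an ion or a counter-substrate. They carry sugars, amino acids, nucleosides, carboxylates, vitamins, metals and inorganic ions, and the large Slc25 family sits in the inner mitochondrial membrane. In the adult, hepatocytes use many of them for fuel, bile acid and drug uptake, and pancreatic acinar and endocrine cells use them to supply amino acids for protein synthesis and to load zinc and amines into granules.

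Poly(A) RNA of C57BL/6J embryos was sequenced from 3 organ buds at E10.5 (liver, ventral pancreas, dorsal pancreas) and from foregut and medial foregut at E8.5, E standing for embryonic day. No treatment, allele or transgene is named in the labels, and how the tissue was isolated or pooled is not given there. Each tissue has 1 library, so the spread between replicates is unknown, and the comparisons are descriptions with neither test nor p-value. The protocol in the labels describes random priming and no strand marking, so reads of genes that overlap on opposite strands cannot be told apart.

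The labels were checked against marker genes, given as summed FPKM. The 7 hepatoblast markers found of 10 listed summed to 5366 in liver, 566 in ventral pancreas, 64.4 in dorsal pancreas, 36.1 in foregut and 27.4 in medial foregut. The 7 pancreatic progenitor markers summed to 25.3 in liver, 174 in ventral pancreas, 154 in dorsal pancreas, 21 in foregut and 8.04 in medial foregut, and in liver 1 of them was listed at 0. Other cell types were also represented. By sum, the 8 cardiomyocyte markers found of 10 were highest in the E8.5 libraries. The 8 endocrine markers found of 12 were highest, by sum, in dorsal pancreas. All are bulk samples, so fewer cells of a type and less RNA per cell cannot be told apart. The table sums ran between 437581 FPKM in dorsal pancreas and 506529 in medial foregut, and depth in reads is unknown.

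Members had a lower median level than the table as a whole and a larger median size of difference in every pair of libraries. The median over members of the mean level was 6.46 FPKM, against 11.9 FPKM over the 11183 named rows with a mean of at least 1 FPKM, a set that includes the members and is called the named rows below. Of the 173 members, 40 were at 10 FPKM or more in every library and none was listed at 0 in any. The difference between a member's highest and lowest library, on the log2(FPKM + 1) scale, was at most 1 in 79 members and at least 2 in 30. The median size of the difference between liver and ventral pancreas was 0.63 over members, against 0.44 over the named rows. Between dorsal pancreas and foregut it was 0.39 against 0.28. A difference of at least 1 in size between liver and medial foregut was found in 34.7% of members and 19.5% of the named rows. Among the even members was Slc30a9, a zinc transporter gene, at 35.2 FPKM in liver, 35 in ventral pancreas, 34.6 in dorsal pancreas, 36.1 in foregut and 39.8 in medial foregut. Members below 1 FPKM numbered 20 in liver, 9 in ventral pancreas, 13 in dorsal pancreas, 19 in foregut and 24 in medial foregut.

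The most abundant members were genes of mitochondrial and lactate carriers. Slc25a3, which encodes the mitochondrial phosphate carrier, was at 423 FPKM in liver, 286 in ventral pancreas, 319 in dorsal pancreas, 322 in foregut and 323 in medial foregut. Slc25a5, which encodes an ADP/ATP exchanger, was at 329 FPKM in liver, 140 in ventral pancreas, 220 in dorsal pancreas, 223 in foregut and 223 in medial foregut. Liver held the highest value of both genes, and ventral pancreas the lowest. Slc25a39, linked to mitochondrial glutathione import, was at 192 FPKM in liver, 113 in ventral pancreas, 108 in dorsal pancreas, 79.8 in foregut and 84.2 in medial foregut, and its row overlaps Rundc3a on the other strand. The lactate and pyruvate transporter genes Slc16a1 and Slc16a3 were the other members that reached 100 FPKM in a library, making 5 in all. The rest of the 12 most abundant were Slc38a4, Slc25a11, Slc38a1, Slc3a2, Slc25a1, Slc38a10 and Slc30a9, with means between 36.1 and 61 FPKM. The row of Slc3a2, the heavy chain that carries the amino acid exchangers of the Slc7 family to the cell surface, covers only 494 bp or 3.0% of the annotated gene.

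Liver was the library in which the most members peaked. Of the 173 members, 66 (38.2%) were highest in liver, 42 (24.3%) in ventral pancreas, 27 (15.6%) in dorsal pancreas, 14 (8.09%) in foregut and 24 (13.9%) in medial foregut. Over the named rows the shares were 24.4% in liver, 26.9% in ventral pancreas, 22% in dorsal pancreas, 11.8% in foregut and 14.9% in medial foregut. Liver was also the library in which 48 members (27.7%) were lowest, against 39.5% of the named rows. The members summed to 3256 FPKM in liver, 2502 in ventral pancreas, 2468 in dorsal pancreas, 2568 in foregut and 2633 in medial foregut, between 0.520% and 0.647% of the table sum. Without replicates these shares describe the 5 libraries only.

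**Figure D1:**
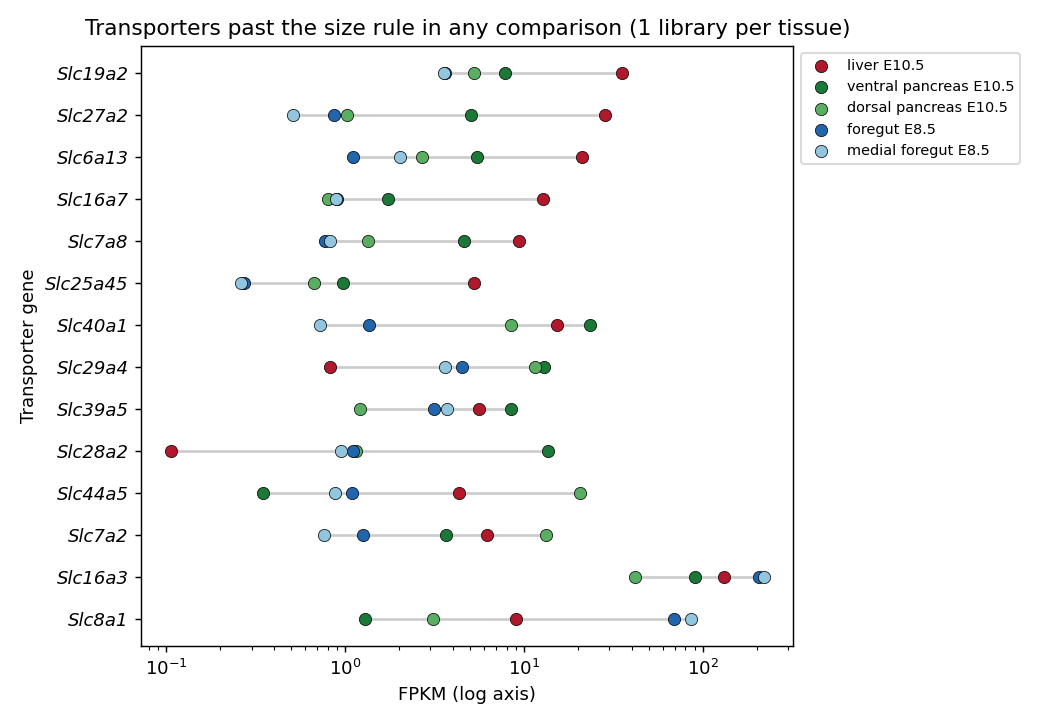
FPKM (log axis) of the 14 solute carrier genes that passed the size rule in any comparison, 1 point per library and 1 line per gene joining its lowest and highest library. Slc8a1 is at 9.05 FPKM or less in the E10.5 libraries and at 69.0 and 86.2 FPKM in the E8.5 libraries, whereas Slc27a2, Slc19a2, Slc6a13, Slc16a7, Slc7a8 and Slc25a45 are highest in liver.

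A row had to meet 3 conditions to be counted: a difference of log2(FPKM + 1) of at least 2 in size, which is 4 times in FPKM + 1, the same direction against each library it was set against, and at least 5 FPKM in the highest of the libraries compared. By this rule 14 members were counted in at least 1 of 6 comparisons, and the plot of their levels shows them. For liver against both pancreatic libraries, a comparison that bears on how hepatic and pancreatic progenitors differ, 3 members (1.73%) were counted higher, where 1.15% of the named rows were, and 1 (0.578%) lower, where 1.82% were. These shares are small and near the backgrounds, so they say nothing about the members as a set. The counted genes had different roles and are described singly. With 5 FPKM added in place of 1 before taking logs, none of the 4 kept a difference of 2. With each library rescaled to the same total of 1000000, 3 members were counted higher and 5 lower, where 140 and 368 of the 11183 named rows were. That total lies above all deposited sums, so the added 1 and the limit of 5 FPKM also weighed less.

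Slc16a7 (mm9 chr10:124656323-124826601, minus strand), which encodes a high-affinity transporter of pyruvate and lactate, was at 12.8 FPKM in liver, against 1.74 in ventral and 0.802 in dorsal pancreas. Foregut was at 0.904 FPKM and medial foregut at 0.888, so the liver library stood alone, 7.38 times above the next one. The smaller of its differences from the pancreatic libraries was 2.34. Slc27a2 (mm9 chr2:126378394-126413981, plus strand), which encodes a fatty acid transport protein with acyl-CoA synthetase activity that is abundant in adult liver and kidney, was at 28.4 FPKM in liver, 5.07 in ventral pancreas, 1.03 in dorsal pancreas, 0.868 in foregut and 0.514 in medial foregut. Liver was 5.6 times above ventral pancreas, the next library, and the smaller difference for liver against pancreas was 2.28. Slc19a2 (mm9 chr1:166179181-166195506, plus strand), a thiamine transporter gene, was at 35.2 FPKM in liver, 7.83 in ventral pancreas, 5.24 in dorsal pancreas, 3.61 in foregut and 3.57 in medial foregut. Liver was again apart from the other 4 libraries, with a smaller difference of 2.03. Hepatoblast markers moved in the same direction as these genes, at 5366 summed FPKM in liver and 566 or less elsewhere. The 5 leukocyte markers found of 11 did so too, at 84.6 summed FPKM in liver, 4.02 in ventral pancreas, 5.44 in dorsal pancreas, 0.971 in foregut and 0.973 in medial foregut, with 3 listed at 0 in each E8.5 library. Of the cardiomyocyte markers found, 6 of 8 were counted higher in liver than in both pancreatic libraries, with 487 summed FPKM in liver, against 25.1 in ventral and 21.5 in dorsal pancreas. Of the mesenchymal markers, 2 of 11 were, with a sum of 281 in liver, against 107 in ventral and 268 in dorsal pancreas. The part of these lists in these differences was not tested.

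The member counted lower in liver was Slc29a4 (mm9 chr5:143168395-143198446, plus strand), which encodes a plasma membrane monoamine transporter of the equilibrative nucleoside family. It was at 0.819 FPKM in liver, 12.9 in ventral pancreas, 11.6 in dorsal pancreas, 4.53 in foregut and 3.62 in medial foregut. The pancreatic libraries were close to each other and above both E8.5 libraries, and the smaller difference for liver was -2.79. Below the size rule against at least 1 pancreatic library were Slc27a1, another fatty acid transport protein gene, at 4.71 FPKM in liver, against 22.5 in ventral and 18.3 in dorsal pancreas, and Slc6a4, the serotonin transporter gene, at 1.24 FPKM in liver, against 10.2 in ventral and 5.07 in dorsal pancreas. The 8 endocrine markers found of 12 summed to 3.86 FPKM in liver, 430 in ventral pancreas, 2301 in dorsal pancreas, 96.4 in foregut and 141 in medial foregut. Their part in the values of Slc29a4 and Slc6a4 was not tested.

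Promoter sequences are shown for 4 counted members, because these are genes whose levels set liver or ventral pancreas apart and the promoter table used holds an entry for them, which it does not for Slc16a7. They come from RefSeq on GRCm38.p6, a later build than the mm9 of the expression table, and cover 300 bases around the annotated start, written along the gene's strand. Capitals mark matches, on either strand, to letters searched in every promoter: GGGCGG (GC box), CAAAGTCCA (HNF4), GTTAAT (HNF1 half-site), TGTTTAC (forkhead) and TTGCGCAA (C/EBP). The promoters lie at chr2:126552774-126553073 for Slc27a2, chr1:164248796-164249095 for Slc19a2, chr5:142701851-142702150 for Slc29a4 and chr2:122426185-122426484 for Slc28a2, all on the plus strand.
Slc27a2: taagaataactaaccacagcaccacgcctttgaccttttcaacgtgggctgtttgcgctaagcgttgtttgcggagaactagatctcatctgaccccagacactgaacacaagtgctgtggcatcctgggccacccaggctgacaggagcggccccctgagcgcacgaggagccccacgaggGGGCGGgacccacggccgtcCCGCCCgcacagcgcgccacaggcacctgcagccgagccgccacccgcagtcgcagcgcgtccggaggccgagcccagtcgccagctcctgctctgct
Slc19a2: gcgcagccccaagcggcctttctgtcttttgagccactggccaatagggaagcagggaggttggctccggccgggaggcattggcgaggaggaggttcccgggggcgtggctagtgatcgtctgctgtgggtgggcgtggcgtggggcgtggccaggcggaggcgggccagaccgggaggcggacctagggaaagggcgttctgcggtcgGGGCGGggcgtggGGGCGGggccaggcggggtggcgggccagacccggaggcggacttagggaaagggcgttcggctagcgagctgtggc
Slc29a4: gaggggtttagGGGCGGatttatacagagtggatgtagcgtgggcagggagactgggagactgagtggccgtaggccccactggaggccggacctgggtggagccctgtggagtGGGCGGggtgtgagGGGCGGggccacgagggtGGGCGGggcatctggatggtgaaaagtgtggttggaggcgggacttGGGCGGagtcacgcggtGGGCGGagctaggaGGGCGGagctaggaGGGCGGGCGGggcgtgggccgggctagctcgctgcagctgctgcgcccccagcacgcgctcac
Slc28a2: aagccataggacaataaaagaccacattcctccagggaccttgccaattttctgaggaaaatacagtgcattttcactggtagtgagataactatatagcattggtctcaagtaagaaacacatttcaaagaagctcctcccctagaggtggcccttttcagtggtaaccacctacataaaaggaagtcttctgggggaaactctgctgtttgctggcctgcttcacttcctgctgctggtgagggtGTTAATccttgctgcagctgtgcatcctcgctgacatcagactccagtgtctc
The Slc27a2 and Slc19a2 windows hold 2 GC box matches each, and the Slc29a4 window holds 9, of which the last pair overlap by 2 bases. The Slc28a2 window has 46.7% G and C, no GC box match and 1 HNF1 half-site match at position 248. Of 182 promoters found for 134 member symbols, 69.2% hold a GC box match, against 63.3% of 9736 promoters of the named rows and 35.7% of all 32851 promoters. An HNF4 match was found in 1.10% of the members' promoters, those of Slc30a3 and Slc3a1, against 0.359% for the named rows and 0.475% for all promoters, and an HNF1 half-site match in 5.49%, against 4.63% and 7.10%. The forkhead letters were found in 0.549%, against 2.37% and 3.65%, and the C/EBP letters in 0 of 182, against 0.288% and 0.183%. These matches describe letters in a window and say nothing of binding.

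With differences of any size taken, liver lay above both pancreatic libraries, by any amount, in 82 of 173 members (47.4%), where 31.9% of the named rows did. It lay below both in 66 members (38.2%), where 52.1% of the named rows did. The split depends on how libraries are scaled to each other. With each library rescaled to the same total, liver was above in 68 members and below in 79, against 24.1% and 59.9% of the named rows. With median-ratio rescaling it was above in 91 and below in 62, against 38.4% and 45.6%. For liver minus ventral pancreas the members' median difference was 0.02, where the named rows had -0.16, and for liver minus dorsal pancreas it was 0.11, where they had -0.15. In 56 members (32.4%) liver was above ventral pancreas and ventral pancreas above dorsal pancreas, where 17.6% of the named rows had that order. The summed hepatoblast markers, at 5366, 566 and 64.4 FPKM in liver, ventral and dorsal pancreas, lay in the same order, and their part in this count was not tested.

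**Figure D2:**
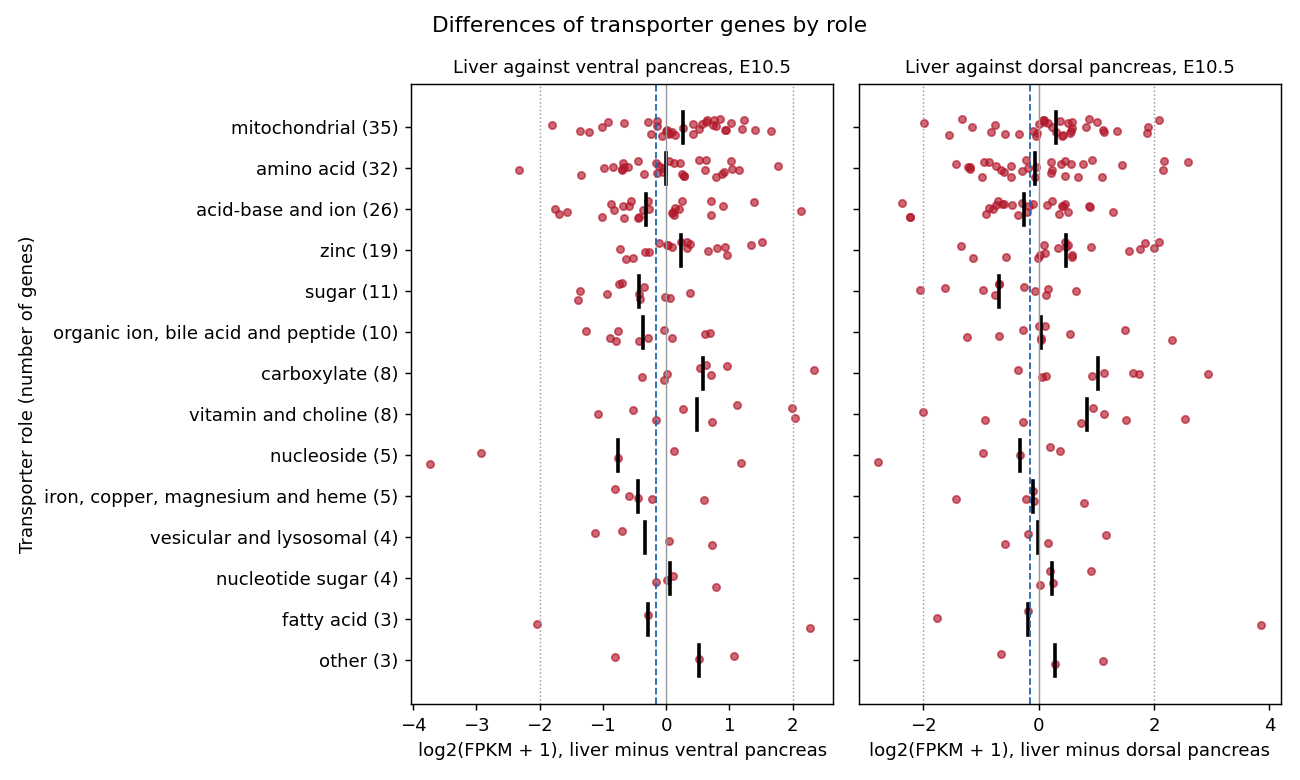
Difference of log2(FPKM + 1) for liver minus ventral pancreas (left) and liver minus dorsal pancreas (right), 1 point per solute carrier gene, grouped by role with the number of genes in brackets. Black bars are the medians of a role, the dashed blue line is the median of the named rows and dotted lines mark a difference of 2 in size; the bars of the mitochondrial and zinc carriers lie right of 0 at 0.27 and 0.24 in the left panel, and those of the sugar carriers left of 0 at -0.43.

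The members were sorted into 14 roles by family, and the plot of differences by role shows the spread within each. The mitochondrial carriers of the Slc25 family were the biggest group, with 35 members and a median over genes of 9.97 mean FPKM. Liver was above both pancreatic libraries in 22 of the 35 (62.9%) and below both in 9 (25.7%), where 31.9% and 52.1% of the named rows were, with median differences of 0.27 against ventral and 0.31 against dorsal pancreas. With rescaling to the same total the counts were 17 (48.6%) and 13 (37.1%), where 24.1% and 59.9% of the named rows were. With median-ratio rescaling they were 24 (68.6%) and 8 (22.9%), where 38.4% and 45.6% of the named rows were.

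Slc25a15, the mitochondrial ornithine carrier gene of the urea cycle, was at 37.2 FPKM in liver, 13.5 in ventral pancreas, 8.01 in dorsal pancreas, 9.95 in foregut and 8.64 in medial foregut, in a row that overlaps an unnamed one on the other strand. Slc25a13, which encodes the aspartate-glutamate carrier called citrin, was at 60.2 FPKM in liver, 33 in ventral pancreas, 27 in dorsal pancreas, 26 in foregut and 24.8 in medial foregut. Slc25a1, the citrate carrier gene, was at 77.2 FPKM in liver, 37.2 in ventral pancreas, 35.2 in dorsal pancreas, 38.5 in foregut and 32.6 in medial foregut. In all 3 genes liver was the single high library. Slc25a10, the dicarboxylate carrier gene, had 46.8 FPKM in liver and between 16.3 and 19.9 in the other libraries. Slc25a20, which encodes the carnitine-acylcarnitine carrier, was at 25.4 FPKM in liver, 14.2 in ventral pancreas, 13.3 in dorsal pancreas, 8.54 in foregut and 11 in medial foregut. None of these passed the size rule for liver against pancreas.

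Other Slc25 genes had their lowest level in liver. Slc25a24, an ATP-magnesium/phosphate carrier gene, was at 5.89 FPKM in liver, 16.8 in ventral pancreas, 19.2 in dorsal pancreas, 15.1 in foregut and 18.3 in medial foregut. Slc25a27, a member of the uncoupling protein branch known from brain, was at 0.814 FPKM in liver, 5.32 in ventral pancreas, 6.25 in dorsal pancreas, 3.98 in foregut and 2.77 in medial foregut. Slc25a36, a pyrimidine nucleotide carrier gene, was at 9.49 FPKM in liver and between 20.2 and 22.3 in the other 4. Liver was the lowest library of all 3 genes. Slc25a37, the mitochondrial iron importer gene of red cell precursors, was even, at 8.54 FPKM in liver, 8.5 in ventral pancreas, 11.1 in dorsal pancreas, 11.7 in foregut and 10.1 in medial foregut. The row of Slc25a4 lies opposite to the annotated strand of that gene, and that of Slc25a18 covers 4.18% of its annotated span.

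**Figure D3:**
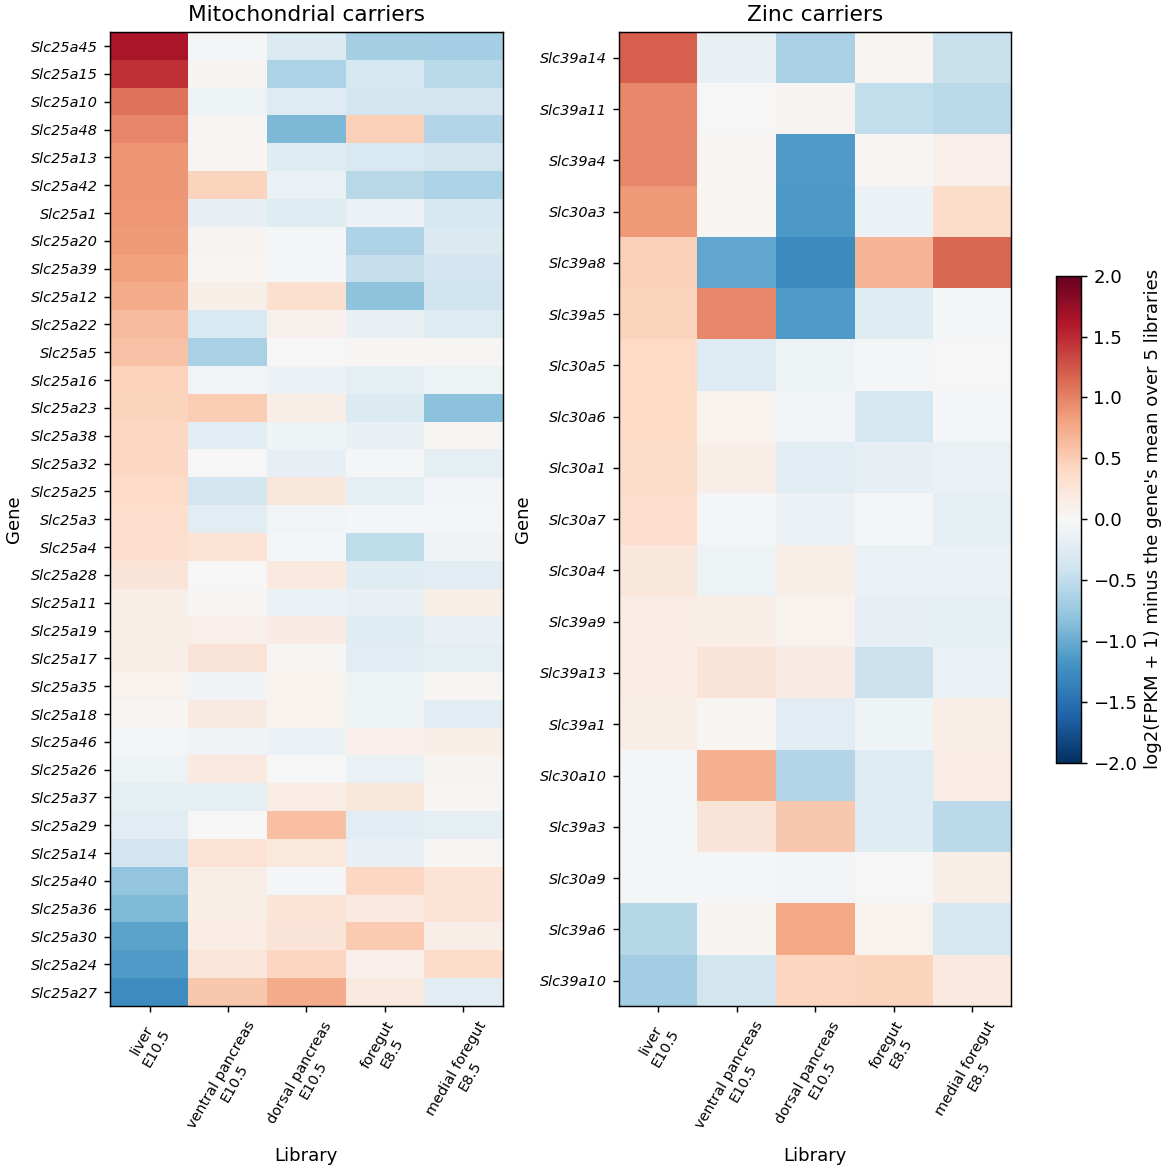
Heat map of log2(FPKM + 1) minus the gene's own mean over the 5 libraries, for the 35 mitochondrial carriers (left) and the 19 zinc carriers (right), 1 column per library, sorted by the liver value. The liver column runs from red at Slc25a45 and Slc25a15 to blue at Slc25a27, and the dorsal pancreas column is blue at Slc39a4, Slc30a3, Slc39a8 and Slc39a5.

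Zinc carriers, the exporters of the Slc30 family and the importers of the Slc39 family, followed with 19 members, and the heat map of both groups sets them side by side. Liver was above both pancreatic libraries in 13 (68.4%) and below both in 4 (21.1%), against the same 31.9% and 52.1%, with median differences of 0.24 against ventral and 0.48 against dorsal pancreas. With rescaling to the same total the counts were 10 (52.6%) and 6 (31.6%), where 24.1% and 59.9% of the named rows were. With median-ratio rescaling they were 13 (68.4%) and 3 (15.8%), where 38.4% and 45.6% of the named rows were. Slc39a14, an importer of zinc, manganese and iron in liver, was at 44.2 FPKM in liver, 16.9 in ventral pancreas, 11.7 in dorsal pancreas, 19.5 in foregut and 13.6 in medial foregut, in a row that covers 9.24% of the annotated gene. Slc39a4, the intestinal zinc importer gene, was at 9.24 FPKM in liver, 4.39 in ventral pancreas, 1.40 in dorsal pancreas, 4.36 in foregut and 4.64 in medial foregut. Slc39a8, an importer of zinc and manganese, was at 16.1 FPKM in liver, 5.00 in ventral pancreas, 4.09 in dorsal pancreas, 18.7 in foregut and 26.3 in medial foregut. Both pancreatic libraries were the low ones for Slc39a8, and dorsal pancreas alone for Slc39a4. On the other side, Slc39a10 was at 19.5 FPKM in liver, 24.7 in ventral pancreas, 44 in dorsal pancreas, 44.2 in foregut and 37 in medial foregut.

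Of the 11 sugar carriers, liver was below both pancreatic libraries in 8 (72.7%) and above both in 2 (18.2%), where 52.1% of the named rows were below and 31.9% above. Below was thus the more frequent side in the table as a whole too. The group had median differences of -0.43 against ventral and -0.68 against dorsal pancreas. With rescaling to the same total 9 were below and 1 above, where 59.9% and 24.1% of the named rows were. With median-ratio rescaling 7 were below and 2 above, where 45.6% and 38.4% of the named rows were. Slc2a4, the insulin-regulated glucose transporter gene of muscle and fat, was at 0.920 FPKM in liver, 3.93 in ventral pancreas, 6.97 in dorsal pancreas, 2.99 in foregut and 3.25 in medial foregut. Slc37a1, of the sugar-phosphate exchanger family, was at 1.05 FPKM in liver, 4.42 in ventral pancreas, 5.30 in dorsal pancreas, 1.72 in foregut and 2.09 in medial foregut. For both genes liver was the lowest library. Slc2a5, the fructose transporter gene, was at 1.3 FPKM in liver, 3.40 in ventral pancreas, 3.50 in dorsal pancreas, 0.779 in foregut and 1.5 in medial foregut.

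Among the 8 carboxylate carriers, 6 were above both pancreatic libraries in liver and 1 below both. The 26 acid-base and ion carriers were split 10 above and 15 below, and the 32 amino acid and amine carriers 12 and 13. The acid-base shares, 38.5% and 57.7%, were near the 31.9% and 52.1% of the named rows, and the amino acid shares were 37.5% and 40.6%. With rescaling to the same total the amino acid counts were 12 and 14, where 24.1% and 59.9% of the named rows were. With median-ratio rescaling they were 16 and 12, where 38.4% and 45.6% of the named rows were. The smaller roles that follow are read against the 31.9% and 52.1% unless other shares are given. In the acid-base group, Slc4a3, an anion exchanger gene, was at 2.41 FPKM in liver, 10.52 in ventral pancreas, 15.1 in dorsal pancreas, 5.05 in foregut and 6.05 in medial foregut. Slc8a2, a sodium-calcium exchanger gene known from brain, was at 0.796 FPKM in liver, 4.34 in ventral pancreas, 8.28 in dorsal pancreas, 5.94 in foregut and 3.62 in medial foregut. Dorsal pancreas was highest and liver lowest for both. By sum, the 8 endocrine markers found of 12 were also highest in dorsal pancreas and lowest in liver. The sums were 3.86 FPKM in liver, 430 in ventral pancreas, 2301 in dorsal pancreas, 96.4 in foregut and 141 in medial foregut. Gcg at 1349 FPKM and Pyy at 722 made up most of the dorsal pancreas sum. Pax6 was highest in foregut, at 42.6 FPKM against 26.2 in dorsal pancreas. Gcg was listed at 0 in both E8.5 libraries and at 0.00929 FPKM in liver. The 10 neural markers found of 11 summed to 3.62 FPKM in liver, 11.2 in ventral pancreas, 52.3 in dorsal pancreas, 103 in foregut and 42.9 in medial foregut. The part of either list in these values was not tested.

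The amino acid group held both broad and tissue-biased genes. Slc7a5, the light chain of the large neutral amino acid exchanger, was at 46.1 FPKM in liver, 37.7 in ventral pancreas, 30.9 in dorsal pancreas, 34.5 in foregut and 25.5 in medial foregut. Slc1a5, a neutral amino acid exchanger gene, was at 27.7 FPKM in liver, 17.8 in ventral pancreas, 29.2 in dorsal pancreas, 26.2 in foregut and 20.6 in medial foregut. Slc38a4, a sodium-coupled amino acid transporter gene, had the highest mean of the group, with its highest level at 75.3 FPKM in ventral pancreas and its lowest at 46.7 in foregut. All 3 were present in every library within a narrow range. Slc6a13, which encodes a transporter of GABA, betaine and taurine found in adult liver, was at 21 FPKM in liver, 5.44 in ventral pancreas, 2.68 in dorsal pancreas, 1.11 in foregut and 2.02 in medial foregut. Its difference from ventral pancreas, 1.77, fell short of the size rule.

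The remaining roles were small. Of the 8 vitamin and choline carriers, 4 were above both pancreatic libraries in liver and 2 below both. Slc5a6, the sodium-coupled multivitamin transporter gene, had 21.3 FPKM in liver and between 8.65 and 9.84 in the other 4 libraries. Of the 5 carriers of iron, copper, magnesium and heme, none was above both pancreatic libraries and 3 were below. Slc11a2, an iron importer gene, was at 12.1 FPKM in liver, 7.68 in ventral pancreas, 12.9 in dorsal pancreas, 14.3 in foregut and 12.5 in medial foregut. Ventral pancreas was its lowest library. The nucleotide sugar carrier Slc35a3, which serves glycosylation in the Golgi, was at 10.4 FPKM in liver and between 5.06 and 5.73 in the other 4. Liver was above both pancreatic libraries in 3 of the 4 members of that group and below both in none. With rescaling to the same total the counts were 2 and 1, where 24.1% and 59.9% of the named rows were. Slc35a1, the CMP-sialic acid carrier gene, lay between 21.9 and 29.1 FPKM over the 5 libraries. Slc35a2, the UDP-galactose carrier gene, lay between 6.89 and 9.17 FPKM. Slc33a1, the acetyl-CoA carrier gene of the endoplasmic reticulum, was at 16.1 FPKM in liver, 7.17 in ventral pancreas, 6.95 in dorsal pancreas, 5.13 in foregut and 5.22 in medial foregut. It was grouped with Slc45a3 and Slc45a4 as other carriers, of which 2 were above and 1 below in liver. Slc45a4 was at 6.13 FPKM in liver, 11.4 in ventral pancreas, 10.2 in dorsal pancreas, 5.17 in foregut and 4.97 in medial foregut, and Slc45a3 lay between 1.56 and 3.99 FPKM over the libraries.

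Nucleoside and fatty acid carriers divided without a common side. Liver was above both pancreatic libraries in 2 of the 5 nucleoside carriers and below both in 3, and for the 3 fatty acid carriers the counts were 1 and 2. Slc29a1, the equilibrative nucleoside transporter gene that is widely expressed in adult tissues, was at 18.7 FPKM in liver, 7.70 in ventral pancreas, 14.2 in dorsal pancreas, 25.2 in foregut and 23.4 in medial foregut. Ventral pancreas was its lowest library. Slc27a4, another fatty acid transport protein gene, was even, at 13 FPKM in liver, 16.1 in ventral pancreas, 14.9 in dorsal pancreas, 17.1 in foregut and 14.8 in medial foregut. Among the metal carriers, Slc41a3, of the magnesium transporter family, was at 1.44 FPKM in liver, 1.85 in ventral pancreas, 1.60 in dorsal pancreas, 0.456 in foregut and 0.425 in medial foregut. The row of Slc31a2, a copper transporter family gene with 0.926 FPKM in liver and 4.24 in dorsal pancreas, overlaps rows of Fkbp15 on both strands.

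All 4 vesicular and lysosomal carriers had a mean under the members' median of 6.46 FPKM, as had the organic ion, bile acid and peptide carriers apart from Slc22a23 at 8.86 and Slc10a7 at 7.05. Of the 10 organic ion, bile acid and peptide carriers, 3 were above both pancreatic libraries in liver and 3 below both. With rescaling to the same total 2 were above and 6 below, where 24.1% and 59.9% of the named rows were. With median-ratio rescaling 4 were above and 3 below, where 38.4% and 45.6% of the named rows were. Of the 4 vesicular and lysosomal carriers 2 were above and 2 below as deposited, and 1 and 2 with rescaling to the same total. Slc22a23 was at 15.4 FPKM in liver, 9.68 in ventral pancreas, 2.32 in dorsal pancreas, 7.73 in foregut and 9.17 in medial foregut, in a row that overlaps Psmg4 on the other strand. Slc22a8, an organic anion transporter gene of the adult kidney, was at 5.86 FPKM in liver, 3.22 in ventral pancreas, 1.43 in dorsal pancreas, 0.859 in foregut and 0.775 in medial foregut. Slc22a18, of the same family, was at 2.99 FPKM in liver, 5.94 in ventral pancreas, 1.74 in dorsal pancreas, 0.696 in foregut and 1.71 in medial foregut. The highest level in the group was thus the 15.4 FPKM of Slc22a23 in liver. Slc18a2, the vesicular monoamine transporter gene used in pancreatic endocrine cells, was at 1.69 FPKM in liver, 3.38 in ventral pancreas, 2.07 in dorsal pancreas, 3.27 in foregut and 3.06 in medial foregut, in a row that overlaps Pdzd8 on the other strand. Its neighbour in role Slc18a1 was at 0.488 FPKM in liver, 2.23 in ventral pancreas, 1.23 in dorsal pancreas, 0.852 in foregut and 0.798 in medial foregut. Slc18a2 was thus lowest in liver and Slc18a1 highest in ventral pancreas, with no library above 3.38 FPKM. Slc17a9, the vesicular nucleotide transporter gene, was at 3.78 FPKM in liver, 1.89 in ventral pancreas, 1.14 in dorsal pancreas, 1.06 in foregut and 1.06 in medial foregut.

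Between the pancreatic libraries, 2 members (1.16%) were counted higher in ventral than in dorsal pancreas, where 1.01% of the named rows were, and 1 (0.578%) lower, where 0.85% were. With a pseudocount of 5 FPKM neither of the higher ones kept a difference of 2. Slc28a2 (mm9 chr2:122252123-122286867, plus strand), which encodes a sodium-coupled transporter of purine nucleosides, was at 13.6 FPKM in ventral pancreas, 1.16 in dorsal pancreas, 0.106 in liver, 1.10 in foregut and 0.952 in medial foregut. Ventral pancreas was 11.8 times above the next library, the most for any member, and its difference from dorsal pancreas was 2.76. Without ventral pancreas the mean of Slc28a2 would lie under 1 FPKM. It was thus a member only through the library in which it was highest. A neighbouring copy, Gm14085, named Slc28a2b in RefSeq, has a row of its own at mm9 chr2:122347375-122348476 with 7.01 FPKM in ventral pancreas, 0.60 in dorsal pancreas, 0.0753 in liver, 1.07 in foregut and 0.296 in medial foregut. Of the distinct 100-base windows of the annotated Slc28a2 transcripts, 18% also occur in those of Gm14085, so reads may be shared and the level of either gene is uncertain.

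Slc39a5 (mm9 chr10:127812979-127838284, minus strand), a zinc importer gene of pancreas and gut epithelium, was at 8.48 FPKM in ventral pancreas, 1.22 in dorsal pancreas, 5.58 in liver, 3.12 in foregut and 3.73 in medial foregut. Dorsal pancreas was the low library, and the difference was 2.09. Its row overlaps Ankrd52 on the other strand. Slc44a5 (mm9 chr3:153636480-153934692, plus strand), of the choline transporter-like family, was at 0.347 FPKM in ventral pancreas, 20.5 in dorsal pancreas, 4.33 in liver, 1.09 in foregut and 0.874 in medial foregut. Dorsal pancreas was 4.74 times above the next library, liver, and the difference of ventral from dorsal pancreas was -4.00. Slc7a2, a cationic amino acid transporter gene, showed the next largest difference on the dorsal side, with 3.64 FPKM in ventral pancreas and 13.3 in dorsal pancreas, a difference of -1.62. Cell type markers moved in this comparison too. Of the hepatoblast markers found, 5 of 7 were counted higher in ventral than in dorsal pancreas. Counted lower were 4 of 8 endocrine, 3 of 11 mesenchymal, 3 of 8 endothelial and 1 of 10 neural markers, while 1 each of the mesenchymal, endothelial, cardiomyocyte and erythroid markers was counted higher. Mesenchymal markers summed to 107 FPKM in ventral and 268 in dorsal pancreas, and endothelial markers to 58.6 in ventral and 71.9 in dorsal pancreas. Their part in the values of these 4 genes was not tested. The members' median difference of ventral minus dorsal pancreas was 0.10, against 0.01 over the named rows.

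The E8.5 libraries were closest to each other. No member was counted for foregut against medial foregut, where 0.0447% of the named rows were higher and 0.00894% lower. The median size of the members' difference was 0.16, against 0.15 over the named rows. The widest were Slc25a48, of the mitochondrial carrier family, at 2.09 FPKM in foregut and 0.471 in medial foregut, and Slc44a3 at 2.14 FPKM in foregut and 0.773 in medial foregut, with differences of 1.07 and 0.82. Both were low in both libraries.

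**Figure D4:**
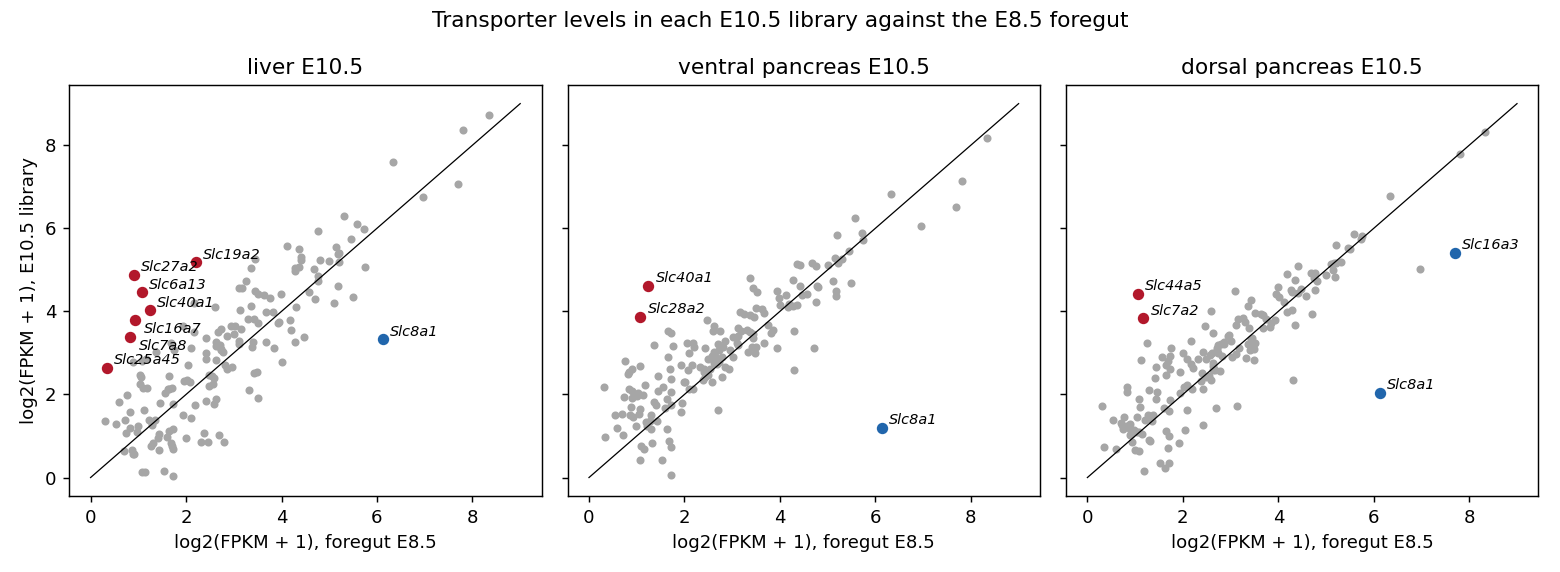
Level of the 173 solute carrier genes in each of the 3 E10.5 libraries (vertical axis, 1 panel per library) against foregut at E8.5 (horizontal axis), both as log2(FPKM + 1), 1 point per gene with the line of equal levels. Red and blue points are counted higher and lower against both E8.5 libraries; 7 red points stand off the line in liver and 2 each in ventral and dorsal pancreas, and Slc8a1 is blue in all 3 panels.

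Each E10.5 library was then set against both E8.5 libraries, which asks how transporter levels differ once the organ buds have formed. Stage and tissue differ together here and cannot be told apart. These 3 comparisons share the E8.5 libraries, and each shares its E10.5 library with those above, so they are given side by side with no overlap drawn. In liver 7 members (4.05%) were counted higher, where 2.53% of the named rows were, and 1 (0.578%) lower, where 2.46% were. In ventral pancreas 2 (1.16%) were counted higher, where 2.16% of the named rows were, and 1 (0.578%) lower, where 1.75% were. In dorsal pancreas 2 (1.16%) were counted higher, where 1.6% of the named rows were, and 2 (1.16%) lower, where 1.41% were. The scatter of each E10.5 library against foregut shows these genes. With rescaling to the same total, ventral pancreas had 8 higher and 2 lower, where 374 and 280 of the 11183 named rows were. That total lies above the deposited sums, so the added 1 and the limit of 5 FPKM weighed less too. With median-ratio rescaling dorsal pancreas had 2 higher and 4 lower, where 170 and 164 of the named rows were. With a pseudocount of 5 FPKM, 2 were counted higher in liver and 1 in each pancreatic library.

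In liver, Slc27a2, Slc19a2 and Slc16a7, described above, were 3 of the 7, with smaller differences of 3.98, 2.97 and 2.86 from the E8.5 libraries. Slc6a13 was another, with 2.87. Slc7a8, the light chain of a second neutral amino acid exchanger, was at 9.43 FPKM in liver, 4.63 in ventral pancreas, 1.34 in dorsal pancreas, 0.774 in foregut and 0.818 in medial foregut, a smaller difference of 2.52 for liver. Slc25a45, a mitochondrial carrier gene, was at 5.23 FPKM in liver, 0.975 in ventral pancreas, 0.671 in dorsal pancreas, 0.271 in foregut and 0.262 in medial foregut, a smaller difference of 2.29. In both genes the 5 libraries lay in the order liver, ventral pancreas, dorsal pancreas and then the E8.5 pair. Without liver the mean of Slc25a45 would lie under 1 FPKM, so it was a member only through its liver value. Its 5.23 FPKM in liver lay just above the limit of 5 FPKM.

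Slc40a1 (mm9 chr1:45964915-45983337, minus strand), which encodes ferroportin, the only known cellular iron exporter of mammals, was counted in both liver and ventral pancreas. It was at 15.3 FPKM in liver, 23.5 in ventral pancreas, 8.42 in dorsal pancreas, 1.37 in foregut and 0.725 in medial foregut, with smaller differences of 2.78 for liver and 3.37 for ventral pancreas. All 3 E10.5 libraries lay above both E8.5 libraries. The 4 erythroid markers found of 16 (Hbb-y, Klf1, Alas2 and Epb4.2) summed to 24.5 FPKM in liver, 117 in ventral pancreas, 28.7 in dorsal pancreas, 4.06 in foregut and 4.04 in medial foregut. Leukocyte markers summed to 84.6 FPKM in liver and 5.44 or less in the other libraries. Red cell precursors and macrophages also carry ferroportin, and the part of these cells in the Slc40a1 values was not tested.

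In ventral pancreas the other gene counted higher was Slc28a2, with a smaller difference of 2.80. Slc28a2 was a member only through its ventral pancreas value, as given above. In dorsal pancreas the genes counted higher were Slc44a5, with 3.36, and Slc7a2 (mm9 chr8:41947592-42007424, plus strand), with 2.66. Slc7a2 was at 13.3 FPKM in dorsal pancreas, 3.64 in ventral pancreas, 6.22 in liver, 1.25 in foregut and 0.759 in medial foregut. It was thus highest in dorsal pancreas and above both E8.5 libraries in all 3 buds.

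Slc8a1 (mm9 chr17:81772269-82137817, minus strand), which encodes the sodium-calcium exchanger of heart muscle, was the member counted lower in every bud. It was at 9.05 FPKM in liver, 1.29 in ventral pancreas, 3.10 in dorsal pancreas, 69.0 in foregut and 86.2 in medial foregut. The smaller differences were -2.80 for liver, -4.93 for ventral pancreas and -4.09 for dorsal pancreas, and no E10.5 value came near the E8.5 values. The 8 cardiomyocyte markers found of 10 summed to 487 FPKM in liver, 25.1 in ventral pancreas, 21.5 in dorsal pancreas, 5162 in foregut and 8849 in medial foregut. They were highest in the same libraries as Slc8a1, and their part in its values was not tested.

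The lactate transporter genes Slc16a3 and Slc16a1, unlike Slc16a7 described above, also had lower levels in all 3 buds than in the E8.5 libraries. Slc16a3 (mm9 chr11:120809647-120810052, plus strand), which exports lactate from glycolytic cells, was at 132 FPKM in liver, 90.9 in ventral pancreas, 41.7 in dorsal pancreas, 207 in foregut and 219 in medial foregut. It was counted lower in dorsal pancreas, with a smaller difference of -2.28, but its row covers 406 bp or 3.28% of the annotated gene. Slc16a1, which moves lactate and pyruvate in either direction, was at 107 FPKM in liver, 65.2 in ventral pancreas, 31.4 in dorsal pancreas, 124 in foregut and 152 in medial foregut. The order of the 5 libraries was the same for both genes, with dorsal pancreas lowest and medial foregut highest. Summed cardiomyocyte markers, and the zinc importer gene Slc39a8 described above, had that order too, and the part of heart cells in these values was not tested. The gene of their accessory protein basigin, Bsg, was at 448 FPKM in liver, 457 in ventral pancreas, 378 in dorsal pancreas, 420 in foregut and 497 in medial foregut. Bsg thus covered a narrower range than the genes it serves.

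Disregarding size, all 3 E10.5 libraries lay above both E8.5 libraries in 54 members (31.2%), where 20.6% of the named rows did, and below both in 23 (13.3%), where 15.1% did. The first set held 13 of the 35 mitochondrial carriers and 11 of the 32 amino acid and amine carriers. Slc44a1, a choline transporter-like gene, was among them, at 32.3 FPKM in liver, 26.8 in ventral pancreas, 16.4 in dorsal pancreas, 9.29 in foregut and 9.06 in medial foregut. The members' median differences from foregut were 0.31 for liver, 0.28 for ventral pancreas and 0.14 for dorsal pancreas, where the named rows had -0.08, 0.11 and 0.08. From medial foregut they were 0.24, 0.29 and 0.17, against -0.07, 0.11 and 0.10.

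Related carriers and partner proteins outside the naming pattern were looked up from fixed lists. Of 12 organic anion carrier genes of the Slco family 3 were found, and Slco3a1 was counted lower in liver than in both pancreatic libraries, at 0.630 FPKM in liver, against 6.08 in ventral and 10.3 in dorsal pancreas. Of 29 carriers under other names 14 were found, and Ucp2, a mitochondrial uncoupling protein gene, was counted higher in ventral pancreas than in both E8.5 libraries, at 60.7 FPKM against 14.2 in foregut and 13.9 in medial foregut. Of 11 partner genes 8 were found, and Atp1b2, a sodium pump subunit gene, was counted lower in dorsal pancreas, at 1.01 FPKM against 8.40 in foregut and 15 in medial foregut. No other gene of the 3 lists was counted in any of the 6 comparisons.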

How the data were processed

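The authors deposited 1 table of FPKM values per locus, per the file headers, with 1 column per library. TopHat 1.33, Cufflinks 1.3.0 and build mm9 are listed in the submitters' processing notes, without their roles. How the libraries were scaled to each other is not given in those notes. Coordinates are those of the table, which does not say whether starts count from 0 or 1. A column was tied to a tissue where that sample's label repeats the column's name. Depth in reads is unknown, so no interval or floor is given.

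Differences are of log2(FPKM + 1), a scale that understates the change of low genes. All 12375 named rows were processed, and counts were taken over the 11183 with a mean of at least 1 FPKM. Strand and span came from GENCODE M21 (GRCm38), where all 173 members matched by symbol, 1 of them by an older symbol. Of these, 1 row lay on the other strand, 2 had no strand and 6 covered under 30% of the annotated span. The alternatives were pseudocounts of 0.1 and 5 FPKM, no filter and a mean of at least 5 FPKM, rescaling to a total of 1000000 or by median ratios, a difference of at least 1, and leaving out rows with a strand or span fault. The counting was tested on simulated data. Python 3.11.15, numpy 2.4.6, pandas 2.3.3 and matplotlib 3.10.9 were used.

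The members, roles and gene lists were chosen with earlier results of these data known. Genes are named when counted in a comparison (up to 10 in each direction), when among the 12 highest means, when among the 3 widest ranges of a role, when among the 3 rows on either side of the mean of 1 FPKM, or from a short list named always. Further genes were chosen after their values were seen: Slc25a10, Slc25a13, Slc25a20, Slc25a24, Slc25a36, Slc25a48, Slc25a4, Slc25a18, Slc39a10, Slc5a6, Slc6a4, Slc44a1, Slc30a3, Slc3a1, Gm14085 and those of the related and partner lists.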

Additional observations from a re-analysis of the deposited data

How the results depend on the processing

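The counts of members depend on the pseudocount and on the size of difference asked for. Numbers in brackets are the counts of the named rows under the same setting, of 11183 rows unless the mean limit changes. With a pseudocount of 0.1 FPKM, 6 members (364) were lower in liver than in both pancreatic libraries. With it 5 (158) were higher in ventral than in dorsal pancreas. Against E8.5, 12 (335) were higher and 2 (414) lower in liver, and 5 (340) were higher in ventral pancreas. With 5 FPKM the counts were 0 for liver against pancreas in either direction (56 higher and 36 lower) and 0 for ventral above dorsal pancreas (34). They were 2 (143) for liver above E8.5, 1 (75) for ventral pancreas above E8.5 and 1 (57) for dorsal pancreas above E8.5. With a mean of at least 5 FPKM, 0 members (88) were higher in ventral than in dorsal pancreas. With that mean 4 (199) were higher in liver than at E8.5 and 1 (171) in ventral pancreas than at E8.5. Rescaled to the same total, 5 members (368) were lower in liver than in pancreas beside 3 (140) higher. Under that rescaling 8 (374) were higher and 2 (280) lower in ventral pancreas than at E8.5. With median-ratio rescaling 4 (164) were lower in dorsal pancreas than at E8.5 beside 2 (170) higher. Asking for a difference of at least 1 gave 15 (385) higher and 12 (829) lower for liver against pancreas. For ventral against dorsal pancreas it gave 9 (406) and 3 (306). Against E8.5 it gave 28 (649) and 9 (863) for liver, 15 (789) and 4 (472) for ventral pancreas, and 13 (539) and 5 (396) for dorsal pancreas. Without rows of a strand or span fault, 1 member was lower in dorsal pancreas than at E8.5, since Slc16a3 has such a row. Without the filter on low values no member count could change. A row with a mean under 1 FPKM over the 5 libraries cannot reach 5 FPKM in any of them. Rescaled to the same total, the members' median difference changed sign to -0.0596 for liver minus ventral pancreas, -0.0754 for liver minus dorsal pancreas and 0.12 for foregut minus medial foregut, and was 0.38 for dorsal pancreas minus medial foregut. That rescaling moved the median of the named rows by up to -0.20 (liver minus dorsal pancreas) and 0.21 (dorsal pancreas minus medial foregut), and median-ratio rescaling moved it by 0.11 for liver minus ventral pancreas. The cause of the other changes was not tested. Of the counts over the named rows, 36 moved by over 1.5 times and 48 did not; with a pseudocount of 5 FPKM those for liver against pancreas were 56 higher and 36 lower, and with rescaling to the same total 368 were lower in liver than in pancreas. Of the differences of the counted genes under the pseudocounts and rescalings, 75 stayed past the size of 2 and 13, all with a pseudocount of 5 FPKM, did not. That none of them changed sign is no support, since a change of pseudocount cannot change a sign. The rescalings moved the medians of the named rows by far less than 2. A pseudocount of 0.1 FPKM can only enlarge a difference, so the differences under it were bound to stay. No paired analysis was possible because each tissue has 1 library, and for the same reason no replicate could be left out.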

Other observations

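A further 16 rows join an Slc name to other genes and were not members, since their reads cannot be assigned to 1 gene. Among them, the row of Ctrl, Psmb10 and Slc12a4 was at 117 FPKM in liver, 28 in ventral pancreas, 26.6 in dorsal pancreas, 21.8 in foregut and 25.7 in medial foregut. The row of Plekhg4 and Slc9a5 was at 1.01 FPKM in liver, 12.7 in ventral pancreas, 12.2 in dorsal pancreas, 7.37 in foregut and 6.21 in medial foregut. The row of Efs and Slc22a17 was at 11.6 FPKM in liver, 42.1 in ventral pancreas, 41.5 in dorsal pancreas, 42.3 in foregut and 52.7 in medial foregut. Liver stands apart from the other 4 libraries in all 3 rows, high in the first and low in the others. These rows were chosen after their values were seen.

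Below the mean of 1 FPKM, Slc34a2, a sodium-phosphate cotransporter gene, was at 2.95 FPKM in ventral pancreas, 0.683 in dorsal pancreas, 0.00846 in liver, 0.667 in foregut and 0.524 in medial foregut. Slc6a7, the brain proline transporter gene, was at 0.0245 FPKM in liver, 0.0203 in ventral pancreas, 0.0750 in dorsal pancreas, 1.10 in foregut and 2.36 in medial foregut. Slc34a2 was highest in ventral pancreas alone, whereas Slc6a7 was higher in both E8.5 libraries than in any E10.5 library. Neither gene reached 3 FPKM in any library.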
